A study of Mus musculus with 6 samples.

Results

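The collagen genes of the mouse were followed in pressure-loaded hearts that did or did not over-express the adenosine A2a receptor. A member was any gene symbol of the form Col, a type number, a and a chain number that was the only symbol annotated to a row of the value table, with the row of highest mean over the 6 arrays kept for each gene. This gave 44 genes of the 19938 with a row of their own, read from 46 rows. They comprised 11 fibrillar chains, 6 basement membrane chains of type IV, 9 FACIT chains (fibril-associated collagens with interrupted triple helices), 6 beaded-filament chains of type VI, 3 network chains, 2 multiplexins, 4 transmembrane chains, the anchoring-fibril chain Col7a1, and Col26a1 and Col28a1. The rule reads symbols and mean levels and no difference between genotypes, although the collagen genes were taken up with earlier results of these data known.

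The hearts came from 3 A2a-R transgenic mice and 3 wild-type littermates of the inbred FVB strain. All were males that underwent transverse aortic constriction (TAC), in which the aorta is narrowed by surgery so that the left ventricle pumps against a higher pressure, at 8 weeks of age, and hearts were taken 14 weeks later. The transgene is inducible and heart-specific and encodes the adenosine A2a receptor, which couples to stimulatory G proteins and so increases cyclic AMP. The labels give neither the promoter nor when the transgene was induced, and unoperated hearts were not analysed here, so the effect of the transgene cannot be told apart from its interaction with the load. No row with exactly 1 symbol was named for the receptor gene Adora2a, so the transgene level was not checked. Each heart was read on 1 Affymetrix Mouse Gene 1.0 ST array, and values are log2 signals, on which a difference of 1 is a doubling. Precision was limited by the number of arrays, and the median standard error (SE) of a log2 difference over all 21789 tested rows was 0.0731. The 7 cardiomyocyte markers lay at 12.18 or above in every heart. Tissue RNA cannot tell fewer cells of a type from less RNA per cell. No detection call accompanied the values, and 10 of the 44 collagen rows were among the dimmest 40% of all tested rows, so whether those transcripts were present above background is not known.

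Collagens are triple helices of chains built from repeats of glycine and a pair of further residues, often proline and hydroxyproline. Fibrillar chains such as those of types I and III form the load-bearing fibrils of the cardiac interstitium and are made mainly by fibroblasts, type IV chains form the sheet-like basement membrane around cardiomyocytes and capillaries, and FACIT chains sit on fibril surfaces and bridge them to other matrix. Pressure overload is known to raise deposition of fibrillar collagen in the ventricle. New chains are hydroxylated on proline and lysine and fold with the help of chaperones before they are secreted, and proteases then trim the fibrillar precursors.

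No collagen gene changed past the threshold. Of the 44 genes, 0 had an adjusted p below 0.05 in limma, a linear model with variances moderated across rows and Benjamini-Hochberg adjustment over all rows, against 0.959% of all tested rows. At an unadjusted p below 0.05 there were 5 (11.4%), against 14.8% of all tested rows: Col14a1 was higher, and Col12a1, Col8a1, Col15a1 and Col4a1 were lower in the transgenic hearts. The higher-only and lower-only shares over all rows were 6.27% and 8.51%, so the collagen count of 1 higher and 4 lower was not above the background in total. By sign, 19 collagen genes were higher (43.2%), 23 lower (52.3%) and 2 had equal means, against 44.7% higher and 53.9% lower over all rows. The median log2 difference was -0.01 (quartiles -0.07 and 0.04), beside -0.01 over all tested rows, and 33 of the 44 differed by less than 0.1. The genotypes did not overlap in 5 genes (11.4%), against 20.3% of all rows; 2 of these were higher (7.73% of all rows) and 3 lower (12.6%).

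**Figure D1:**
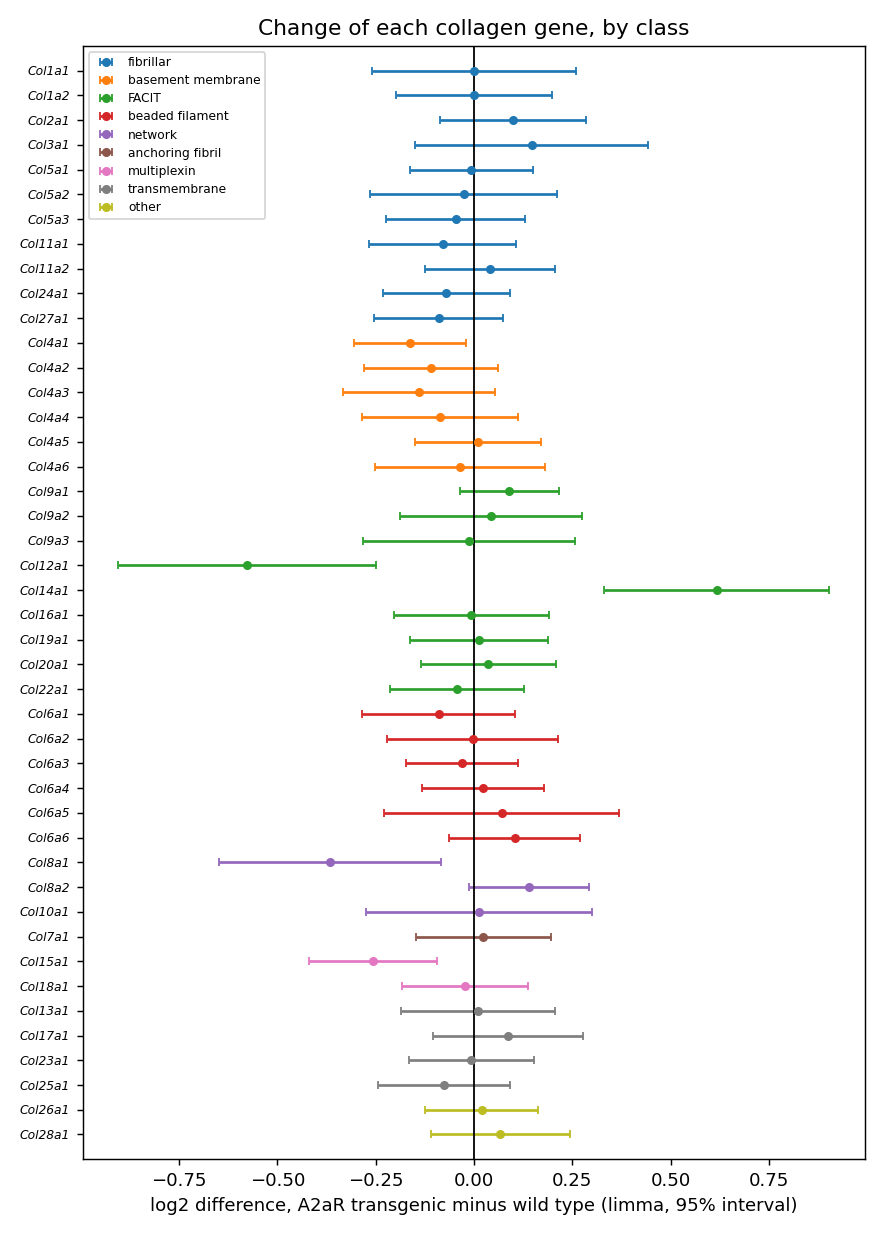
Log2 difference of each of the 44 collagen genes, A2aR transgenic minus wild type (x axis), with the 95% interval from limma and n = 3 hearts a group, grouped by class on the y axis. The FACIT chains Col14a1 (0.62) and Col12a1 (-0.58) stand farthest from 0 in opposite directions, and the 11 fibrillar chains lie between -0.09 and 0.15.

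The heart of wild-type replicate 1 stood apart in these genes. It had the single highest value in 24 of the 44 collagen genes (54.5%), against 19.9% of all tested rows, and the single lowest in 0. Its fibrillar chains lay on average 0.13 above their 6-heart means, while those of wild-type replicates 2 and 3 lay at -0.06 from it in both. Transgenic replicate 2 had the single lowest value in 20 collagen genes (45.5%), against 23.8% of all rows. Its array median over all tested rows was 7.08, against 7.14 to 7.15 in the other transgenic arrays and 7.13 to 7.16 in the wild-type arrays. With arrays centred on their medians, 14 genes were lowest in it (31.8%, against 11.8% of all rows centred alike). On the same values 21 were highest in wild-type replicate 1 (47.7%, against 14.3%). Of 8 fibroblast markers, 6 were highest in wild-type replicate 1, whose mean over the list was 10.36, against 10.17 to 10.18 in the transgenic hearts and 10.04 and 10.13 in wild-type replicates 2 and 3. None of the 8 was lowest in transgenic replicate 2, and 5 were lowest in wild-type replicate 2. Periostin (Postn), a matrix protein of activated fibroblasts, was at 10.52, 10.66 and 10.68 in the transgenic hearts and 11.39, 10.37 and 10.57 in the wild-type hearts. The part of fibroblast content in the collagen values was not tested. Without wild-type replicate 1 the difference was more positive in 41 of the 44 collagen genes and their median was 0.04. The sign turned in 8 genes, all of which differed by less than 0.1 with that heart included.

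**Figure D2:**
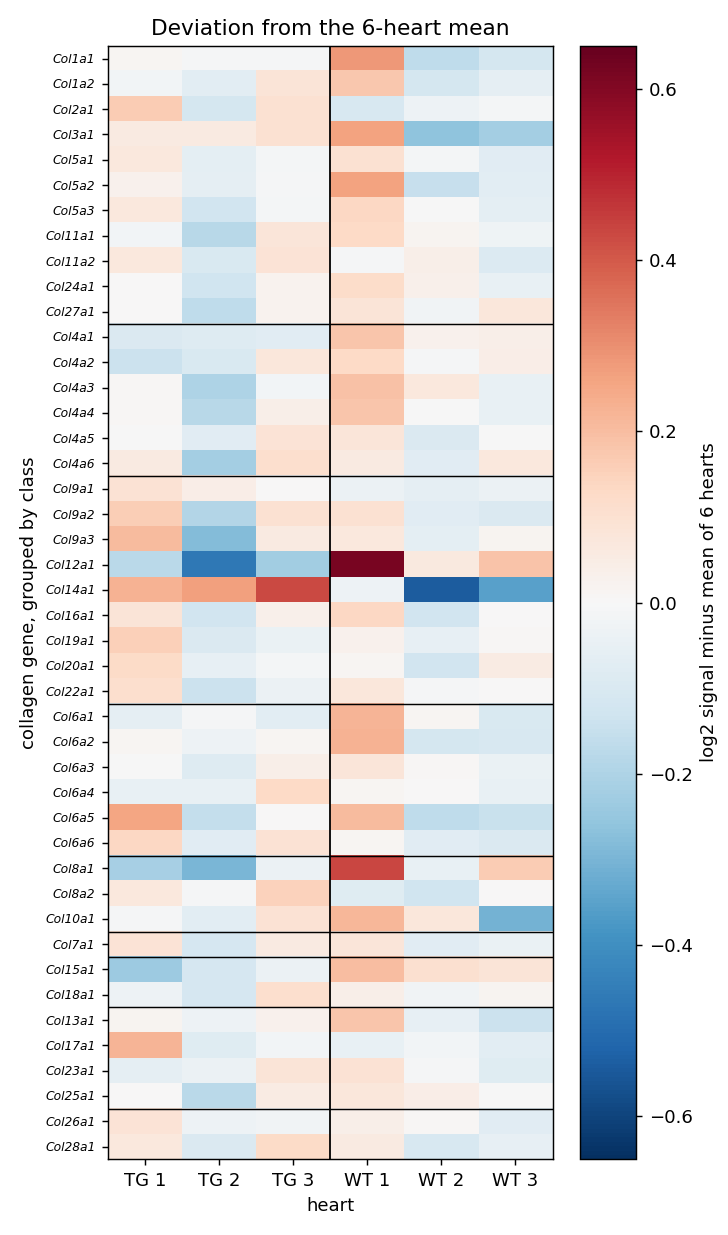
Deviation of each heart from the 6-heart mean (colour, log2 signal) for the 44 collagen genes (rows, grouped by class with black lines between classes), with transgenic hearts TG 1 to TG 3 left of wild-type hearts WT 1 to WT 3. The WT 1 column is above the mean in most rows, with its strongest values at Col12a1 and Col8a1, and Col14a1 is the row in which all 3 transgenic hearts are clearly above the wild-type hearts.

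Each chain of type I collagen had the same mean level in both genotypes when wild-type replicate 1 was included. Col1a1, the major chain of type I collagen, was at 9.40, 9.38 and 9.38 in the transgenic hearts and at 9.67, 9.22 and 9.27 in the wild-type hearts. The transgenic hearts agreed within 0.02 and lay inside the wild-type range. The difference was 0.00 ± 0.11 (SE; 95% interval -0.26 to 0.26), and without wild-type replicate 1 it was 0.14 ± 0.06 (limma unadjusted p = 0.0428, adjusted p = 0.337). Col1a2, the second chain of type I, was at 9.26, 9.21 and 9.36 in the transgenic hearts and 9.45, 9.16 and 9.22 in the wild-type hearts, a difference of 0.00 ± 0.09 (interval -0.20 to 0.20). It too was highest in wild-type replicate 1, and without that heart the difference was 0.09 ± 0.07.

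Col3a1, the chain of type III collagen that mixes with type I in compliant fibrils, was at 8.79, 8.79 and 8.83 in the transgenic hearts and at 8.99, 8.47 and 8.51 in the wild-type hearts. All transgenic hearts stood above wild-type replicates 2 and 3 and below wild-type replicate 1. The difference was 0.15 ± 0.13 (interval -0.15 to 0.44, limma adjusted p = 0.659), and 0.31 ± 0.06 without wild-type replicate 1 (unadjusted p = 0.00115, adjusted p = 0.103), so that 1 heart moved the value by over 1.5 times without bringing it past the threshold. Col5a1 and Col5a2, chains of type V collagen, which helps to start type I fibrils, differed by -0.01 ± 0.07 and -0.03 ± 0.10. Col5a2, the neighbour of Col3a1 on chromosome 1, was at 7.17, 7.08 and 7.13 in the transgenic hearts and 7.40, 6.99 and 7.07 in the wild-type hearts, again highest in wild-type replicate 1, without which its difference was 0.10 ± 0.06. Of the 11 fibrillar chains 9 were highest in that heart.

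The other fibrillar chains are better known from cartilage and developing tissue. Col2a1, the main collagen of cartilage, differed by 0.10 ± 0.08, and its partners Col11a1 and Col11a2 by -0.08 ± 0.08 and 0.04 ± 0.07. Col5a3, Col24a1 and Col27a1 differed by -0.05, -0.07 and -0.09. None of the 11 fibrillar chains had an unadjusted p below 0.05 in limma (lowest 0.240), and their median difference was -0.01. Of 6 cartilage and valve markers, 0 passed in limma and 2 (33.3%) had an unadjusted p below 0.05, against 14.8% of all tested rows, in opposite directions. Comp, a cartilage matrix protein, differed by -0.52 ± 0.21, was highest in wild-type replicate 1 (7.83) and differed by -0.25 ± 0.11 without it. Cnmd, the cartilage protein chondromodulin, differed by 0.21 ± 0.08. The mean level of the 6 lay between 6.41 and 6.59 in the transgenic hearts and between 6.56 and 6.71 in the wild-type hearts.

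Of the 6 type IV chains, 5 were lower (83.3%, against 53.9% of all rows) and Col4a5 was at 0.01 ± 0.07. In limma 0 passed, and 1, Col4a1, had an unadjusted p below 0.05 (16.7%, against 14.8% of all rows). The median was -0.10, beside -0.01 over all tested rows, and 4 of the 6 were highest in wild-type replicate 1, without which the median was -0.045. Leaving out transgenic replicate 2 gave a median of -0.047. Col4a1, which with Col4a2 forms the common type IV network, was at 8.64, 8.65 and 8.66 in the transgenic hearts and at 8.91, 8.76 and 8.77 in the wild-type hearts. The groups did not overlap, although the gap was 0.10. The difference was -0.16 ± 0.06 (interval -0.31 to -0.02; limma unadjusted p = 0.0290, adjusted p = 0.275), and without wild-type replicate 1 the unadjusted p was 0.0776; it was below 0.05 in 2 of the 6 fits that left out 1 heart. Col4a2 was at 8.83, 8.87 and 9.04 in the transgenic hearts and 9.10, 8.96 and 9.01 in the wild-type hearts, with overlapping groups and a difference of -0.11 ± 0.07 (-0.07 ± 0.08 without wild-type replicate 1). Col4a3 and Col4a4, chains of the specialised network of kidney glomeruli, differed by -0.14 ± 0.08 and -0.09 ± 0.09, and Col4a6 by -0.04 ± 0.09. Without wild-type replicate 1 these differences were -0.08, -0.02 and -0.02. Endothelial cells lay basement membrane down, and 6 of 7 endothelial markers were also lower (85.7%, against 53.9% of all rows). Of the 7, 1 had an unadjusted p below 0.05 in limma (14.3%, against 14.8% of all rows). Mean list levels just overlapped, at 10.110 to 10.197 in the transgenic hearts and 10.196 to 10.227 in the wild-type hearts. Kdr, a receptor for vascular endothelial growth factor, differed by -0.14 ± 0.06 (limma adjusted p = 0.299). The part of endothelial content in the type IV values was not tested.

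The type IV genes lie in head-to-head pairs, a layout in which neighbouring genes are read in opposite directions from a common start region. In the RefSeq annotation of GRCm38.p6, Col4a1 and Col4a2 on chromosome 8 overlap by 85 bases and Col4a4 and Col4a3 on chromosome 1 by 114, while Col4a6 and Col4a5 on chromosome X are 1274 bases apart. Promoter windows of 300 bases (250 before the annotated start and 50 after it) were held by the RefSeq promoter table for 35 of the 44 collagen genes. The windows of Col4a1 and Col4a2 are shown because both lie on the same stretch of DNA, that of Col1a2 as a fibrillar chain with equal means, and that of Col8a1 as a gene that lay lower. Capitals mark matches on either strand to GGGCGG, the GC box that Sp-family factors bind, and to the CCAAT box. The TATA box, searched as TATAAA on either strand, is in none of these windows. No marked match overlaps a match to another motif.
Col4a1, chr8:11312777-11313076, minus strand: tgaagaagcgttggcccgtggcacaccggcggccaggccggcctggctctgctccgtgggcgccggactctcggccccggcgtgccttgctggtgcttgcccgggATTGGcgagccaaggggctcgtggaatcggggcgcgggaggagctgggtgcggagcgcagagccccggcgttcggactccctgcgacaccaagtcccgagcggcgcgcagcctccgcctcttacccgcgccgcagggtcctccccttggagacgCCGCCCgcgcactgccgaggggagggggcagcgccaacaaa
Col4a2, chr8:11312555-11312854, plus strand: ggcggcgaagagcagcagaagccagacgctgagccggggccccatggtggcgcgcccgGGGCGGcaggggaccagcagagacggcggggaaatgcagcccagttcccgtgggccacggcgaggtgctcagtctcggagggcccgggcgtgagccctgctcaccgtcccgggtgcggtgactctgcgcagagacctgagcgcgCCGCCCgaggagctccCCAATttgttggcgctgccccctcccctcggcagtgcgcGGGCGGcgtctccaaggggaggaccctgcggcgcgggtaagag
Col1a2, chr6:4505368-4505667, plus strand: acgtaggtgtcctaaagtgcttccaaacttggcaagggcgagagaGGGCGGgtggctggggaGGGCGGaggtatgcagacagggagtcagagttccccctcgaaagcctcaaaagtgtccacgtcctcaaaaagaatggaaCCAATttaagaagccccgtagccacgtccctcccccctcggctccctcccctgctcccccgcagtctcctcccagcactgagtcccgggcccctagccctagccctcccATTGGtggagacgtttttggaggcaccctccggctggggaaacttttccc
Col8a1, chr16:57754688-57754987, minus strand: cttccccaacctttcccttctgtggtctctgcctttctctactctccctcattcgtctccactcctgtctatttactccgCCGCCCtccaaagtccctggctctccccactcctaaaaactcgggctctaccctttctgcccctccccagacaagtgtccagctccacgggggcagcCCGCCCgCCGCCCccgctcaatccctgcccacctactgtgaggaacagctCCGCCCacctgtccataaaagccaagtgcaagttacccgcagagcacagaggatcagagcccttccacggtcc

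The Col4a1 and Col4a2 windows share 78 bases, which hold 1 GC box match and no CCAAT box. Over the collagen genes with a window, GGGCGG was found in 22 of 35 (62.9%), against 35.7% of all 32851 windows in the RefSeq table. The CCAAT box was found in 13 of the genes (37.1%), against 37.4% of all windows. The TATA box was found in 5 (14.3%), against 13.6% of all windows. The collagen shares count genes, while the shares beside them count windows. Counted by window, GGGCGG, the CCAAT box and the TATA box were in 23, 13 and 5 of the 38 collagen windows. These matches describe the letters only. The Col1a2 window holds 2 GC box matches and the Col8a1 window 4, and the windows of Col14a1 and Col12a1 were not used here.

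The FACIT chains held the members with the largest differences of either sign. Col14a1, a FACIT chain that binds decorin and sits on type I fibrils, was at 8.56, 8.60 and 8.76 in the transgenic hearts and at 8.30, 7.79 and 7.98 in the wild-type hearts. All 3 transgenic hearts stood above all 3 wild-type hearts. The means were 8.64 ± 0.11 in the transgenic and 8.02 ± 0.26 in the wild-type hearts (SD, n = 3 each), a difference of 0.62 ± 0.12 (SE), or 1.53-fold higher, with a limma adjusted p of 0.0729. It passed in 5 of 13 refits: with arrays centred on their medians (0.0357), without the dimmest 40% of rows (0.0298), with a trended and robust variance prior (0.0193), with array weights (0.0317), and without wild-type replicate 1 (0.0337, difference 0.76). At an adjusted p below 0.10 it was the 1 collagen gene called, against 2.18% of all rows. Over all 13 its adjusted p was 0.0193 to 0.200 and its difference 0.50 to 0.76.

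Col12a1, the FACIT chain closest to Col14a1 in kind, which is abundant in tendon and in tissue under tension, went the other way. It was at 6.35, 6.06 and 6.30 in the transgenic hearts and at 7.14, 6.59 and 6.71 in the wild-type hearts. The groups did not overlap, and wild-type replicate 1 was again the highest. The means were 6.24 ± 0.16 and 6.81 ± 0.29 (SD, transgenic and wild type, n = 3 each), a difference of -0.58 ± 0.14 (SE), or 1.49-fold lower in the transgenic hearts (limma unadjusted p = 0.00362, adjusted p = 0.123). Without wild-type replicate 1 the difference was -0.41 ± 0.10, and over the 12 refits that held it its adjusted p was 0.0538 to 0.244. Its row lay just inside the dimmest 40% of all tested rows.

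The remaining 7 FACIT chains differed by -0.04 to 0.09. Col9a1, Col9a2 and Col9a3, which coat the type II fibrils of cartilage, differed by 0.09 ± 0.06, 0.04 ± 0.10 and -0.01 ± 0.12. Col9a1 was at 6.57, 6.52 and 6.48 in the transgenic hearts and 6.44, 6.42 and 6.44 in the wild-type hearts, groups that did not overlap but lay 0.04 apart. Col16a1 differed by -0.01, Col19a1 by 0.01, Col20a1 by 0.04 and Col22a1, a chain of muscle-tendon junctions, by -0.04. As a class, 5 FACIT chains were higher and 4 lower with a median of 0.01, and the groups did not overlap in 3 of 9 (33.3%), against 20.3% of all tested rows. In 6 of the 9 chains the highest value was in transgenic replicate 1.

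**Figure D3:**
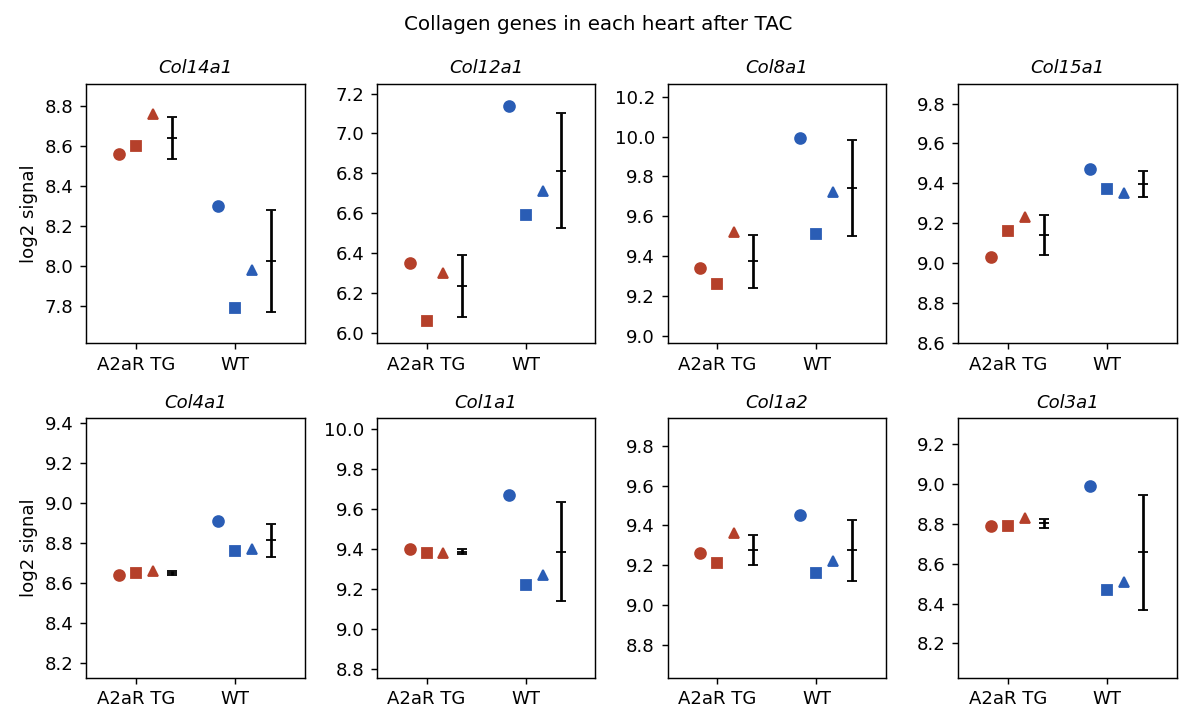
Log2 signal (y axis, each panel spanning 1.3 units) of 8 collagen genes in each heart, transgenic in red at the left and wild type in blue at the right of each panel; circles, squares and triangles are replicates 1, 2 and 3, and black bars are the mean ± SD of 3 hearts. Col14a1 is higher and Col12a1, Col15a1 and Col4a1 lower without overlap, Col8a1 overlaps by 1 heart (9.52 against 9.51), and in Col1a1, Col1a2 and Col3a1 the transgenic hearts lie within the wild-type range.

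Among the other classes, a short-chain network collagen and a multiplexin lay lower. Col8a1, a network-forming chain made by vascular and fibroblast-lineage cells, was at 9.34, 9.26 and 9.52 in the transgenic hearts and at 9.99, 9.51 and 9.72 in the wild-type hearts. Transgenic replicate 3 just overlapped wild-type replicate 2. The difference was -0.37 ± 0.12 (limma unadjusted p = 0.0172, adjusted p = 0.230), and -0.24 ± 0.10 without wild-type replicate 1, a log2 value over 1.5 times smaller with an unadjusted p of 0.0522. Its partner chain Col8a2 was at 6.46, 6.38 and 6.54 in the transgenic hearts and 6.31, 6.26 and 6.39 in the wild-type hearts, a difference of 0.14 ± 0.07 in the opposite direction (unadjusted p = 0.0671). Col10a1, the network chain of hypertrophic cartilage, differed by 0.01 ± 0.12.

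Col15a1, a multiplexin of muscle and vessel basement membrane zones, was at 9.03, 9.16 and 9.23 in the transgenic hearts and at 9.47, 9.37 and 9.35 in the wild-type hearts. The groups did not overlap. The difference was -0.26 ± 0.07 (limma unadjusted p = 0.00656, adjusted p = 0.157), and it kept an unadjusted p below 0.05 in each of the 6 fits that left out 1 heart (differences -0.30 to -0.20). Col18a1, the second multiplexin and the precursor of endostatin, differed by -0.02 ± 0.07.

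The beaded-filament chains of type VI, which surround cells and link them to the interstitial matrix, showed small differences. Col6a1 was at 8.92, 8.97 and 8.91 in the transgenic hearts and 9.20, 8.99 and 8.88 in the wild-type hearts, and Col6a2 at 8.87, 8.82 and 8.87 in the transgenic hearts and 9.08, 8.74 and 8.75 in the wild-type hearts. Both had their highest value in wild-type replicate 1, with differences of -0.09 ± 0.09 and 0.00 ± 0.09, and of 0.00 ± 0.06 and 0.11 ± 0.06 without it. Col6a3 was at 8.01, 7.93 and 8.05 in the transgenic hearts and 8.09, 8.02 and 7.97 in the wild-type hearts, a difference of -0.03 ± 0.06. Col6a6 was at 8.04, 7.83 and 8.00 in the transgenic hearts and 7.92, 7.83 and 7.81 in the wild-type hearts, a difference of 0.10 ± 0.07, and the second row of this gene gave 0.09. Col6a5, the other gene with a pair of rows, gave 0.07 and 0.08. The transmembrane Col17a1 was at 6.83, 6.53 and 6.59 in the transgenic hearts and 6.56, 6.59 and 6.54 in the wild-type hearts, and the transmembrane Col25a1 at 6.42, 6.24 and 6.47 in the transgenic hearts and 6.49, 6.46 and 6.41 in the wild-type hearts. They differed by 0.09 ± 0.08 and -0.08 ± 0.07. The 16 genes outside the fibrillar, type IV and FACIT classes with an unadjusted p of 0.05 or more differed by -0.09 to 0.14.

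The enzymes that modify new collagen chains did include genes that changed. Of 25 measured genes of collagen folding and processing, 2 fell and 23 did not pass in limma (0.441% of all tested rows fell), and 6, all lower, had an unadjusted p below 0.05 (8.51% of all rows). By sign 17 were lower (68.0%, against 53.9% of all rows) and 8 higher, with a median of -0.02. The groups did not overlap in 8 genes (32.0%, against 20.3% of all rows). Of these 7 were lower (12.6% of all rows) and 1, Crtap, was higher (7.73%), by 0.13 ± 0.06. Plod2, the lysyl hydroxylase of collagen telopeptides, was at 8.85, 8.92 and 8.90 in the transgenic hearts and at 9.24, 9.25 and 9.29 in the wild-type hearts. The groups were 0.32 apart and each spanned less than 0.1. Plod2 fell by 0.37 ± 0.05 (SE, limma adjusted p = 0.0235).

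P4ha2, a catalytic subunit of prolyl 4-hydroxylase, which makes the hydroxyproline that stabilises the helix, was at 8.25, 8.20 and 8.34 in the transgenic hearts and at 8.64, 8.64 and 8.59 in the wild-type hearts. It fell by 0.36 ± 0.06 (limma adjusted p = 0.0374) with no overlap of the groups. Both calls were lost without any 1 of the 6 hearts (adjusted p of 0.0621 or above for Plod2 and of 0.0645 to 0.154 for P4ha2), while the differences stayed between -0.40 and -0.33. P4ha1, the main catalytic subunit of the same enzyme, was at 9.15, 9.30 and 9.25 in the transgenic hearts and at 9.71, 9.52 and 9.66 in the wild-type hearts, a difference of -0.40 ± 0.07 that stood just outside the threshold (limma adjusted p = 0.0532). The subunit that these share, P4hb, also did not overlap between groups but differed by -0.11 ± 0.06.

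Serpinh1, the collagen chaperone HSP47, was at 8.78, 8.64 and 8.86 in the transgenic hearts and at 8.93, 9.24 and 9.14 in the wild-type hearts. The difference was -0.34 ± 0.09 (limma adjusted p = 0.154) without overlap. Tll2, a tolloid-like protease of the family that trims procollagen, was at 6.53, 6.29 and 6.51 in the transgenic hearts and at 6.79, 7.00 and 7.16 in the wild-type hearts, a difference of -0.54 ± 0.11 (limma adjusted p = 0.0688). Colgalt2, a galactosyltransferase of collagen hydroxylysine, differed by -0.19 ± 0.05 (0.160). Of the 25 genes, 7 had their single highest value in wild-type replicate 1, P4ha1 and P4hb among them, while Plod2, P4ha2, Serpinh1 and Tll2 did not. The other lysyl hydroxylases Plod1 and Plod3 differed by 0.01 and 0.02, the procollagen proteinase Bmp1 by -0.01 and its enhancer Pcolce by 0.01.

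**Figure D4:**
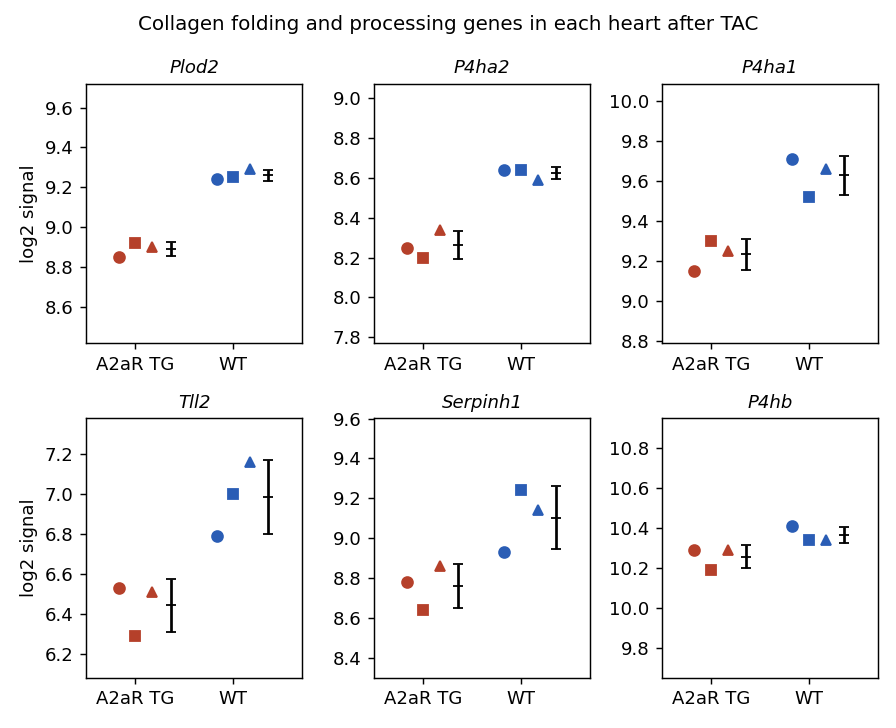
Log2 signal (y axis, each panel spanning 1.3 units) of 6 collagen folding and processing genes in each heart, transgenic in red at the left and wild type in blue at the right; circles, squares and triangles are replicates 1, 2 and 3, and black bars are the mean ± SD of 3 hearts. In all 6 panels the transgenic hearts lie below the wild-type hearts without overlap, from a difference of -0.11 in P4hb to -0.54 in Tll2. The panels were picked from 25 genes, of which 7 were lower and 1 higher without overlap.

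Collagen receptors did not pass in limma. Of 10 measured, 0 were called. An unadjusted p below 0.05 in limma was found for 1 of the 10, against 14.8% of all tested rows, so the count was not above the background. That gene was Itga1, the integrin subunit that binds type IV and type I collagen, at -0.20 ± 0.08 (limma adjusted p = 0.318). Itga1 was highest in wild-type replicate 1, without which it differed by -0.135 ± 0.080 (limma unadjusted p = 0.138). Mrc2, an endocytic receptor that clears collagen, differed by -0.13 ± 0.07 (-0.065 ± 0.055 without wild-type replicate 1), and Ddr2, a receptor tyrosine kinase for fibrillar collagen, by 0.07 ± 0.05. Adgrg1, an adhesion receptor that binds type III collagen, differed by 0.08 ± 0.07 (0.03 ± 0.06 without wild-type replicate 1).

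Markers of other cell types were read beside these results. In the transgenic hearts all 7 macrophage markers were higher (44.7% of all rows were), 1 of them past the threshold (0.519% of all rows rose). That marker, Lgals3, the lectin galectin-3, rose by 0.61 ± 0.06 (limma adjusted p = 0.00423). Of the 7 macrophage markers, 6 had an unadjusted p below 0.05 in limma (85.7%, against 14.8% of all rows). The groups did not overlap in any of the 7, against 20.3% of all rows without overlap. Their mean level was 8.91 to 8.996 in the transgenic hearts and 8.52 to 8.65 in the wild-type hearts. The list and Col14a1 were thus both higher in the transgenic hearts. In wild-type replicates 1, 2 and 3 the list mean was 8.56, 8.65 and 8.52, and Col14a1 was at 8.30, 7.79 and 7.98. The order of 3 hearts cannot show whether the list and Col14a1 run together. The part of macrophage content in the Col14a1 result was not tested. Of 8 fibroblast markers 4 were higher and 4 lower with a median of 0.00 and 0 called, and 0 had an unadjusted p below 0.05. Of 7 smooth muscle and pericyte markers 3 were higher and 4 lower, with mean levels of 8.90 to 8.93 in the transgenic hearts and 8.87 to 8.94 in the wild-type hearts. The medians were -0.01 for 7 cardiomyocyte, 0.04 for 5 epicardium and mesothelium, 0.05 for 2 Schwann cell and -0.05 for 3 adipocyte markers. In limma 0 were called in each list, and 2, 0, 0 and 0 had an unadjusted p below 0.05. The 2 cardiomyocyte markers (28.6%, against 14.8% of all rows) went in opposite directions, Ryr2 by 0.25 ± 0.07 and Mybpc3 by -0.16 ± 0.06.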

How the data were processed

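RNA of 6 hearts was measured on 1 array each. Per the labels' protocols, Trizol-extracted RNA (100 ng) was labelled with a WT Terminal Labeling Kit. The deposited values are log2 signals, made by the authors with RMA and Partek per the submitters' processing notes. The sources used here do not state versions, settings or a build. RMA gives the arrays similar distributions, so a global shift per heart may be removed, and small changes can be compressed. Medians over the tested rows still ran from 7.08 in transgenic replicate 2 to 7.16 in wild-type replicate 1.

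Gene symbols came from the array platform's annotation. Of 28853 rows, 21789 had exactly 1 symbol and were tested, 1621 had several and 5443 none. All 44 collagen symbols matched RefSeq (GRCm38.p6) by Entrez identifier. Transgenic minus wild type was fitted with limma 3.58.1 in R 4.3.3 on the deposited values, with no covariate, over all tested rows, with Benjamini-Hochberg adjustment and a threshold of 0.05. Errors are the SD over 3 hearts or the moderated SE. The code was tested on simulated data of known changes. Hearts are numbered as in the titles, and the design gives 3 mice per group.

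The members, classes and lists were chosen with earlier results of these data known. Named were all fibrillar, type IV and FACIT chains, other collagens with an unadjusted p below 0.05, the 3 largest and 3 smallest differences among the rest, and up to 4 genes of smallest p in each pathway list. Other named genes were chosen after their values were seen. Of the list genes, 25 of 27 folding and processing genes, 10 of 11 receptors, 2 of 4 Schwann cell and 3 of 4 adipocyte markers had a row. Alternatives were the replicate number as a block, further quantile normalization, median centring, leaving out dim rows, another variance prior, array weights, the mean of a gene's rows, another threshold and leaving out each heart.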

Additional observations from a re-analysis of the deposited data

How the results depend on the processing

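The precision is limited by 3 arrays a group. In 562 refits of single collagen genes, Col14a1 was the only one to pass in limma, in 5 of them. Sign changes occurred in 60 refits of 22 genes, all of which differed by less than 0.1 in the reported fit. The number of collagen genes called was 0 as reported and 1 with arrays centred on their medians, without the dimmest 40% of rows, with a trended and robust prior, with array weights, at an adjusted p below 0.10 (2.18% of all rows), and 0 to 1 with 1 heart left out. Collagen genes with an unadjusted p below 0.05 that were higher numbered 1, against 2 with centred arrays or array weights and 1 to 4 with 1 heart left out; those lower numbered 4, against 2 to 4. Called folding and processing genes numbered 2, against 1 after further quantile normalization, 4 without dim rows, with the trended prior or with array weights, 3 with centred arrays or averaged rows, and 0 without any 1 heart, where fewer arrays were fitted. All tested rows called numbered 209, against 493 without dim rows, 579 with the trended prior, 301 with array weights and 84 to 147 with 1 heart left out. The medians of the collagen genes and of the fibrillar, type IV and FACIT chains moved by less than the spread between hearts in every alternative run. That spread was 0.07 to 0.10, beside medians of -0.01, -0.01, -0.10 and 0.01, so it is a loose measure. The collagen and fibrillar medians changed sign after further quantile normalization, with centred arrays and with array weights (0.04 for both with array weights). Whether equal replicate numbers mark a shared litter or day is not known. Same-numbered hearts had correlations of deviations of 0.16, -0.01 and -0.10, and 2 of 6 hearts correlated best with their own number. The highest correlation was 0.23, between transgenic replicate 2 and wild-type replicate 3. With 3 hearts a group these values cannot decide the question. With the replicate number as a block, 97 rows, 0 collagen genes and 0 folding and processing genes were called in limma, with 5 collagen genes at an unadjusted p below 0.05.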
